A study of Mus musculus with 6 samples.

Results

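Trp53, the gene of the transcription factor p53, and 9 genes that p53 is known to activate (Cdkn1a, Mdm2, Ccng1, Bax, Bbc3, Phlda3, Sesn2, Gdf15 and Eda2r) were followed in TKPTS cells, a mouse kidney proximal tubule line. The genes were chosen by name, and all 10 were found among the 29595 genes of the deposited table. Each of the 10 passed the filter on low counts, which left 17824 genes for testing. Of 6 cultures, 3 had been transfected with pcDNA3.1-Hnf3a-Flag, a plasmid for Flag-tagged HNF3α (the Hnf3a group), and 3 with pcDNA3.1-Flag, the same plasmid with no insert (the pcDNA group). HNF3α is a forkhead transcription factor encoded by Foxa1. All 6 cultures were of the 1 cell line, were transfected, and were harvested a day later with no injury or damaging agent given in the labels. The labels do not say whether the 3 replicates of a group came from separate experiments, so p-values measure the spread between these cultures, which may be technical.

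p53 is held at a low level by Mdm2, which marks it for degradation, and builds up when DNA is damaged or growth signals go wrong. It then binds a short paired motif near its target genes and raises their transcription. The targets stop the cell cycle, start cell death, restrain growth signalling, or, as with Mdm2, feed back on p53 itself. In kidney tubules this response is known from ischemic and toxic injury, where p53 and p21 help to decide between repair, arrest and death. The p53 protein is controlled mainly after translation, so its own mRNA need not follow its activity. TKPTS cells are known to come from a mouse carrying the early region of simian virus 40, whose large T antigen binds p53 and can block it. Neither T antigen nor p53 protein was analysed here, so whether p53 was free to act in these cells was not tested.

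The libraries held 60473818 to 71154667 estimated counts. Foxa1, checked first because the plasmid carries it, was at 334.2, 295.5 and 284.2 FPKM (fragments per kilobase of transcript, scaled to library size) in Hnf3a replicates 1, 2 and 3 and at 9.49, 9.54 and 9.96 FPKM in pcDNA replicates 1, 2 and 3, so every Hnf3a library was far higher, as labelled. The epithelial genes Krt8, Krt18 and Epcam were abundant, and Krt18 was higher in the Hnf3a group (log2 fold change 0.20, edgeR adjusted p 0.00148). The proximal tubule genes were low, with at most 58 counts for Lrp2, Cubn and Hnf4a, at most 3 for Slc5a2, 47 to 94 for Ggt1 and 162 to 235 for Aqp1. Of the 12 epithelial and tubule genes looked for, 9 were found by name, and Slc34a1, Slc22a6 and Slc22a8 were not. The 6 fibroblast genes summed to 4549 and 5291 counts in Hnf3a replicates 2 and 3, against 93 in Hnf3a replicate 1 and 20 to 62 in the pcDNA libraries, with Col1a1 at 0 in pcDNA replicate 1. The part of this RNA in the results was not tested. Values without those 2 libraries are given for each of the 10 genes and for some genes of other lists. They come from Hnf3a replicate 1 alone against the 3 pcDNA libraries, with the lone library assumed to vary like the others. The macrophage and blood cell list summed to 1815 to 2157 counts in the Hnf3a group and 1654 to 1740 in the pcDNA group, mostly Cd68 and Csf1r, which were present in every library. Less abundant macrophage genes were higher in Hnf3a replicates 2 and 3, as with Adgre1 (in order of replicate, 9, 41 and 38 counts in the Hnf3a group and 0, 8 and 0 in the pcDNA group), Ptprc (3, 31 and 14 against 0, 7 and 4) and Tyrobp (0, 15 and 25 against 0 in every pcDNA library). The endothelial list summed to 167 to 188 and 228 to 316 counts, with Cdh5 lower in the Hnf3a group (107, 119 and 118 against 202, 279 and 284 counts, edgeR adjusted p 0.000821) and Tek higher (11, 15 and 16 against 0 in every pcDNA library, edgeR adjusted p 0.0194). The part of these genes in the results was not tested either. In bulk RNA, fewer cells of a kind and less RNA per cell cannot be told apart.

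The promoters of 4 of the genes with a match to the p53 motif or to a forkhead motif, the kind that HNF3α binds, are shown. Trp53, Bax and Bbc3 also hold a match, and their promoters are not printed. Each stretch runs 5′ to 3′ on the gene's strand from 250 to 31 bases before a RefSeq start site (220 bases, build GRCm38.p6). Both strands were searched, and capitals mark matches to the p53 half-site or, as 7 letters, to the forkhead motif TGTTTAC on either strand. They lie at chr17:29090729-29090948 (plus strand), chr11:40755317-40755536 (minus strand), chr10:117710789-117711008 (minus strand) and chrX:97377240-97377459 (minus strand).
Cdkn1a: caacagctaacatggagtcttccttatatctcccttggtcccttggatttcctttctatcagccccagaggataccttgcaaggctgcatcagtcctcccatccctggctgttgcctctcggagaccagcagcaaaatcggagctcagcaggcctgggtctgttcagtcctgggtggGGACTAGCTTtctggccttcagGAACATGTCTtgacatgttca
Ccng1: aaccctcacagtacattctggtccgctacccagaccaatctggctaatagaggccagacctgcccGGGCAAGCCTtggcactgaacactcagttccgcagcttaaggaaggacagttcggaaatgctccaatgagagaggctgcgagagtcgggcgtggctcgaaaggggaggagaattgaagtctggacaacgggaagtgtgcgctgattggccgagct
Mdm2: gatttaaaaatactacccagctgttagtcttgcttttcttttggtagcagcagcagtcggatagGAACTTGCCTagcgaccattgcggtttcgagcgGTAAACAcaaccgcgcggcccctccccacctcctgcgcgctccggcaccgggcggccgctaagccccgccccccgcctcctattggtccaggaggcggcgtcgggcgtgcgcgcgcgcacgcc
Eda2r: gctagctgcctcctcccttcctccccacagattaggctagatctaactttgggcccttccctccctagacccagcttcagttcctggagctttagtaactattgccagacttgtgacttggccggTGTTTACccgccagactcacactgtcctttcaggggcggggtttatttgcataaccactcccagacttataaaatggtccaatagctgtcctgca

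All 10 genes had a RefSeq promoter, with 14 start sites in all. A p53 half-site lay within 250 bases before at least 1 start site of 5 of them (Trp53, Cdkn1a, Mdm2, Ccng1 and Bax), against 7.13% of the 32851 promoters of the same length. Shares of promoters count each start site by itself, while a gene counts when any of its start sites has a match. Only 7 of the 10 genes had 1 start site, so the gene counts and these shares are unlike units. A strict match to the whole p53 element, 2 half-sites with 0 to 13 bases between them, was found only at Cdkn1a among the 10. It lay from 73 to 42 bases before 1 of the starts of Cdkn1a, at 29090979, with 12 bases between the half-sites. Of all promoters, 0.0639% held such a match. Every letter had to fit. The bases straight after the second half-site at Cdkn1a, tgacatgttc, miss the half-site pattern only at their first letter. The pair with no bases between was therefore not counted. The forkhead motif TGTTTAC was found at Mdm2, Eda2r and 1 of the starts of Bbc3, against 3.17% of all promoters, and the related TGTTTGC at none of the 10, against 4.3%. The half-site matches are parts of the element match at Cdkn1a, and the other motifs did not overlap. A match describes the letters of the window and says nothing of binding.

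The broad result was a small one. At an adjusted p under 0.05 over all genes, 1 of the 10 genes differed between the groups, Ccng1, which was higher in the Hnf3a group, where 3.17% of all tested genes differed, 1.04% higher and 2.13% lower. The estimates of 9 of the 10 lay above 0, with a median log2 ratio (log2 fold change, Hnf3a over pcDNA) of 0.11 and a range from -0.06 (Bax) to 0.32 (Eda2r), while over all genes 50.2% lay above 0 with a median of 0.00085. For 5 genes (Cdkn1a, Ccng1, Phlda3, Sesn2 and Eda2r) every Hnf3a library was above every pcDNA library in FPKM, against 10.3% of all tested genes apart in that direction, 8.7% in the other and 19.0% in either. The groups overlapped for the other 5 (Trp53, Mdm2, Bax, Bbc3 and Gdf15). These genes had an unadjusted edgeR p under 0.05 in 5 of 10 cases, the same 5, against 13.5% of all genes. The 10 genes had a median level of 29.4 FPKM, against 3.35 FPKM over all tested genes. Shares over all genes are not matched for level, here or for the other lists.

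**Figure D1:**
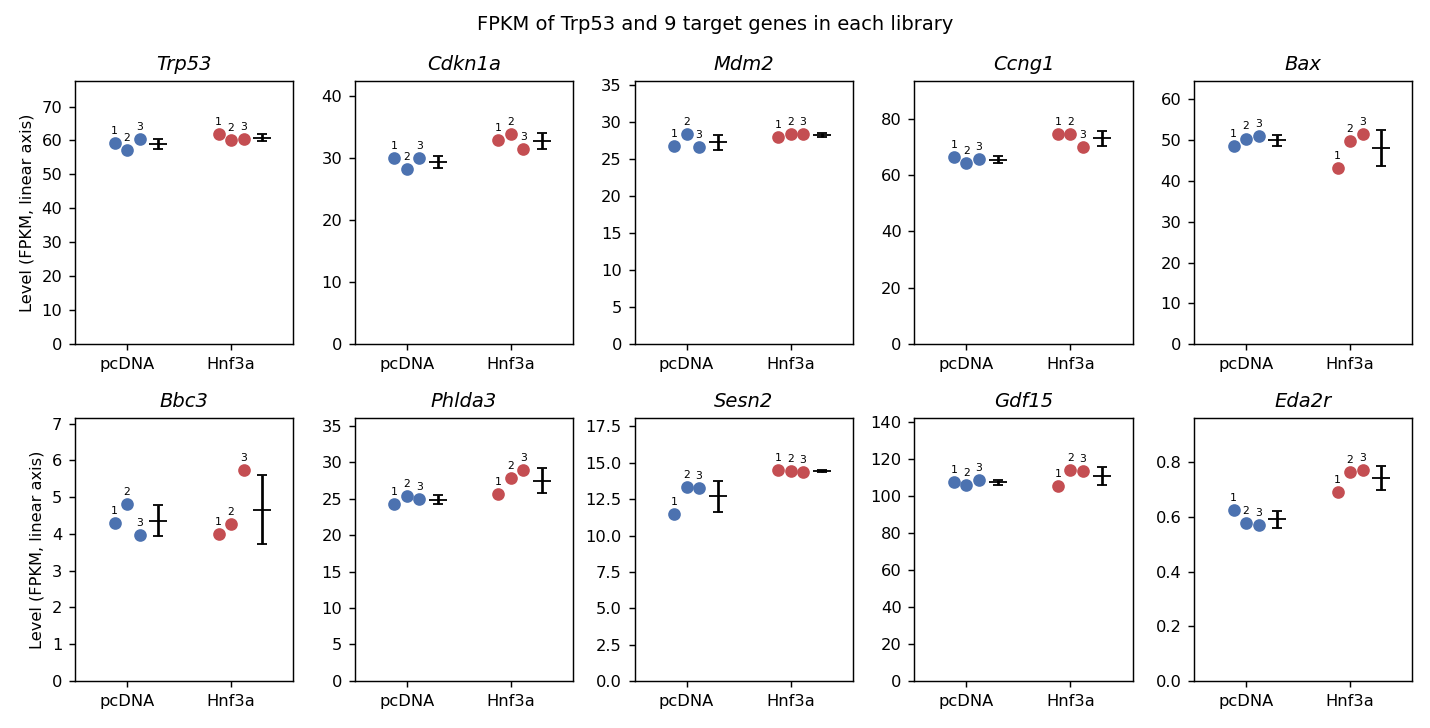
FPKM (linear axis from 0, one scale per panel) of Trp53 and 9 p53 target genes in 3 pcDNA (blue) and 3 Hnf3a (red) libraries. Points are libraries with their replicate number, and bars at the right of each group are the mean and SD. The groups are apart for Cdkn1a, Ccng1, Phlda3, Sesn2 and Eda2r, and the differences are small against the levels.

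Trp53 (ENSMUSG00000059552, chromosome 11, 69580359 to 69591873 in GRCm38, plus strand) was at 59.2, 57.2 and 60.4 FPKM in pcDNA replicates 1, 2 and 3 and at 62.0, 60.2 and 60.4 FPKM in Hnf3a replicates 1, 2 and 3. The ranges overlapped. The log2 ratio was 0.037 ± 0.032 (standard error, SE, as for all such ratios here), at an adjusted p of 0.707 in edgeR. Its 95% interval covers a change between -2.18% and 7.66%. With Hnf3a replicate 1 alone it was 0.073 (edgeR adjusted p 0.476). A pseudogene copy, Trp53-ps, had 41 to 108 counts against 16198 to 19283 for Trp53. Trp63 and Trp73, the other p53 family genes, had at most 4 and 12 counts in any library and were not tested.

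Mdm2, the ubiquitin ligase that degrades p53 and is itself a p53 target (ENSMUSG00000020184, chromosome 10, 117688875 to 117710758, minus strand), was at 26.7, 28.4 and 26.7 FPKM in the pcDNA replicates and at 27.9, 28.4 and 28.4 FPKM in the Hnf3a replicates. pcDNA replicate 2 reached the level of the Hnf3a libraries. Its log2 ratio was 0.043 ± 0.034 (95% interval -0.031 to 0.118; edgeR adjusted p 0.677), and 0.035 with Hnf3a replicate 1 alone.

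Ccng1 codes for cyclin G1, a p53 target that acts with a phosphatase on Mdm2 (ENSMUSG00000020326, chromosome 11, 40748552 to 40755311, minus strand). It was at 66.6, 64.2 and 65.7 FPKM in pcDNA replicates 1, 2 and 3 and at 74.6, 74.7 and 70.0 FPKM in Hnf3a replicates 1, 2 and 3. The 3 Hnf3a libraries were all higher. Ccng1 rose from 65.5 ± 1.21 to 73.1 ± 2.68 FPKM (SD, n = 3 each). The log2 ratio of 0.15 ± 0.034 stands for a rise of 5.51% to 16.8% (95% interval), and the edgeR adjusted p was 0.028. Hnf3a replicate 1, in which fibroblast genes were low, held 74.6 FPKM, and with that library alone the log2 ratio was 0.19 (edgeR adjusted p 0.0337). The call was lost, with the direction kept, when any of 5 libraries was left out. Leaving out Hnf3a replicate 1 gave an edgeR adjusted p of 0.065 and leaving out replicate 2 one of 0.177. Dropping pcDNA replicate 1, 2 or 3 gave 0.0936, 0.182 or 0.108, and dropping Hnf3a replicate 3 gave 0.00701.

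Cdkn1a codes for p21, the inhibitor of cyclin-dependent kinases through which p53 stops the cell cycle (ENSMUSG00000023067, chromosome 17, 29090976 to 29100727, plus strand). It was at 30.0, 28.2 and 30.0 FPKM in pcDNA replicates 1, 2 and 3 and at 33.0, 33.9 and 31.5 FPKM in Hnf3a replicates 1, 2 and 3. All 3 Hnf3a libraries were above the pcDNA libraries. Its log2 ratio, 0.15 ± 0.039, was as large as that of Ccng1, but the edgeR adjusted p was 0.0578, just outside the threshold. The 95% interval of the change was 4.65% to 17.6%. The call turned with the processing. The adjusted p was 0.0278 with a filter of at least 1 FPKM in 3 libraries, 0.0371 under total-count scaling, 0.0354 with counts divided by 4, 0.0134 in DESeq2 and 0.028 in edgeR without Hnf3a replicate 3. It reached 0.285 without pcDNA replicate 2, and with Hnf3a replicate 1 alone the log2 ratio was 0.17 (edgeR adjusted p 0.132). Cdkn1a and Ccng1 thus had nearly the same estimate, and an adjusted p on each side of the threshold does not set them apart. An unverified transcript model, AC167363.2, overlaps Cdkn1a on the other strand.

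**Figure D2:**
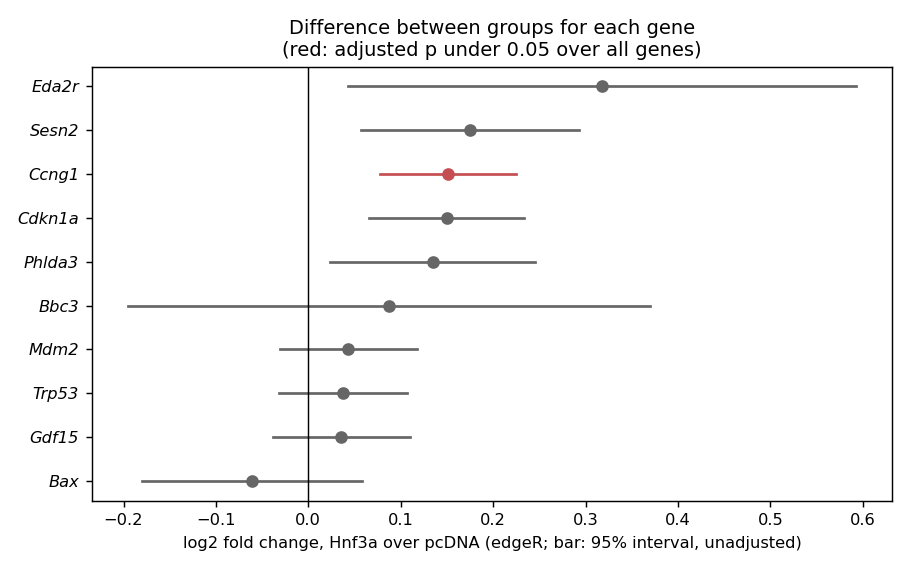
Log2 ratio of each gene, Hnf3a over pcDNA, from the edgeR fit over all genes, with 3 libraries per group. Bars are 95% intervals not adjusted for the number of genes, and red marks the 1 gene, Ccng1, with an adjusted p under 0.05. The intervals of Eda2r, Sesn2, Ccng1, Cdkn1a and Phlda3 lie above 0, and those of Bbc3, Mdm2, Trp53, Gdf15 and Bax span it.

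Of the genes that restrain growth signalling, Sesn2 codes for sestrin 2, a leucine sensor that holds back mTORC1, and is induced by both p53 and ATF4 (ENSMUSG00000028893, chromosome 4, 132492032 to 132510501, minus strand). It was at 11.5, 13.3 and 13.3 FPKM in pcDNA replicates 1, 2 and 3 and at 14.5, 14.4 and 14.4 FPKM in Hnf3a replicates 1, 2 and 3. The Hnf3a libraries had a coefficient of variation of 0.44%, against 8.19% in the pcDNA group, where pcDNA replicate 1 was the lowest of all. Sesn2 had a log2 ratio of 0.18 ± 0.055 (95% interval 0.057 to 0.29; edgeR adjusted p 0.131). Without pcDNA replicate 1 it was 0.11, at an edgeR adjusted p of 0.39, and with Hnf3a replicate 1 alone 0.19 (edgeR adjusted p 0.328). An annotated RNA, Gm12981, overlaps Sesn2 on the same strand, so part of the counts could be assigned to either.

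Phlda3, a small lipid-binding protein that competes with AKT for the membrane (ENSMUSG00000041801, chromosome 1, 135766119 to 135769136, plus strand), was at 24.2, 25.4 and 24.9 FPKM in the pcDNA replicates and at 25.6, 27.9 and 28.9 FPKM in the Hnf3a replicates. The groups were apart by a narrow margin, since Hnf3a replicate 1 lay just above pcDNA replicate 2. For Phlda3 the log2 ratio was 0.13 ± 0.051 (edgeR adjusted p 0.247). Hnf3a replicates 2 and 3, the 2 libraries with more counts for the listed fibroblast genes, were the higher ones. With Hnf3a replicate 1 alone the log2 ratio was 0.042.

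Among the genes of cell death, Bax codes for the protein that opens the outer mitochondrial membrane (ENSMUSG00000003873, chromosome 7, 45461697 to 45466898, minus strand). It was at 48.5, 50.4 and 51.0 FPKM in pcDNA replicates 1, 2 and 3 and at 43.2, 49.8 and 51.6 FPKM in Hnf3a replicates 1, 2 and 3. Hnf3a replicate 1 was below all other libraries, and the other 5 lay close together. Bax was the only one of the 10 genes with an estimate below 0, a log2 ratio of -0.06 ± 0.055 (edgeR adjusted p 0.726). It rested on Hnf3a replicate 1. Without that library it was 0.0082, without Hnf3a replicate 3 it was -0.11, and with Hnf3a replicate 1 alone it was -0.21 (edgeR adjusted p 0.0612). A gene model, Gm45808, overlaps Bax on the same strand.

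Bbc3, also called PUMA, codes for a BH3-only protein that frees BAX to act (ENSMUSG00000002083, chromosome 7, 16308393 to 16318205, plus strand). It was at 4.30, 4.80 and 3.96 FPKM in the pcDNA replicates and at 3.99, 4.26 and 5.73 FPKM in the Hnf3a replicates. Hnf3a replicate 3 was the highest library and the groups overlapped. The coefficient of variation, 20.1% in the Hnf3a group and 9.76% in the pcDNA group, was the largest of the 10 genes in each group. For Bbc3 the log2 ratio was 0.087 ± 0.13 (95% interval -0.19 to 0.37, edgeR adjusted p 0.867), and it was -0.086 without Hnf3a replicate 3 and -0.13 with Hnf3a replicate 1 alone.

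Eda2r, a receptor for ectodysplasin A2 of the tumour necrosis factor receptor family (ENSMUSG00000034457, chromosome X, 97333840 to 97377216, minus strand), was the least abundant of the 10 genes. It was at 0.625, 0.577 and 0.570 FPKM in pcDNA replicates 1, 2 and 3, with 250, 250 and 248 counts, and at 0.692, 0.764 and 0.770 FPKM in Hnf3a replicates 1, 2 and 3, with 297, 359 and 335 counts. The groups did not overlap. Its log2 ratio, 0.32 ± 0.13, was the highest estimate of the 10 genes and among the least precise, with a 95% interval of 3.01% to 50.8% for the change and an edgeR adjusted p of 0.274. With Hnf3a replicate 1 alone it was 0.22 (edgeR adjusted p 0.681).

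Gdf15, a secreted protein of the TGF-β superfamily that is induced by p53 and by ATF4 in stressed cells (ENSMUSG00000038508, chromosome 8, 70629393 to 70632456, minus strand), was the most abundant of the 10. It was at 107.4, 106.1 and 108.8 FPKM in the pcDNA replicates and at 105.3, 113.8 and 113.3 FPKM in the Hnf3a replicates. Hnf3a replicate 1 was the lowest library and replicates 2 and 3 the highest. For Gdf15 the log2 ratio was 0.036 ± 0.034 (95% interval -0.039 to 0.11, edgeR adjusted p 0.752), and with Hnf3a replicate 1 alone against the pcDNA libraries it was -0.029.

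In both groups the mean levels followed 1 order in FPKM, a scale per length: Gdf15 first, then Ccng1, Trp53, Bax, Cdkn1a, Mdm2, Phlda3, Sesn2, Bbc3 and Eda2r. In the pcDNA group the means ran from 107.5 ± 1.36 FPKM for Gdf15 to 0.591 ± 0.030 FPKM for Eda2r (SD, n = 3). The FPKM ranges of neighbours in this order did not overlap, except for Cdkn1a and Mdm2 in the pcDNA group and Mdm2 and Phlda3 in the Hnf3a group. Trp53, Ccng1 and Gdf15 stood above the 95th percentile of the tested genes in the pcDNA group (95.6, 96.1 and 97.9), while Bbc3 stood at percentile 54.7 and Eda2r at 27.2.

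Further genes of the pathway were counted from lists that fit it. Of 30 further p53 targets, all tested, 1 rose, 0 fell and 29 did not pass, against 3.17% of all tested genes that passed. The median log2 ratio was -0.00074, with 15 estimates above 0 and 15 below, and the groups were apart upward for 5 and downward for 3, against 10.3% and 8.7% of all tested genes. The 1 that passed and the 3 apart downward are near those shares. Those 3, named after their values were seen, were Fas, Ddb2 and Dcxr. Their log2 ratios were -0.49, -0.24 and -0.17 (edgeR adjusted p 0.229, 0.155 and 0.323), and Fas held 115 to 213 counts. The 5 apart upward were Trp53inp1, Sesn1, Ei24, Btg2 and Aen, at 0.28, 0.16, 0.095, 0.084 and 0.076. The gene that rose was Trp53inp1, which codes for a stress protein that helps p53 to become phosphorylated. It was at 7.99, 8.26 and 8.93 FPKM in pcDNA replicates 1, 2 and 3 and at 10.5, 10.7 and 9.46 FPKM in Hnf3a replicates 1, 2 and 3, all 3 higher. The log2 ratio was 0.28 ± 0.054 at an edgeR adjusted p of 0.0115. That p was 0.104, 0.0992 and 0.0958 without Hnf3a replicate 2, pcDNA replicate 1 and pcDNA replicate 2. With Hnf3a replicate 1 alone the log2 ratio of Trp53inp1 was 0.32. The 3 most abundant genes of the list did not pass. Epha2, an ephrin receptor, Sfn, the checkpoint protein 14-3-3σ, and Perp, a desmosome and death protein, had log2 ratios of 0.013, -0.0064 and 0.035.

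Of 13 genes that control p53 or belong to its family, 11 were tested, of which 1 fell, 0 rose and 10 did not pass. Over all tested genes, 2.13% passed as lower and 1.04% as higher. The median log2 ratio of the 11 was -0.019. The groups were apart downward for 2 and upward for 0, against 8.7% and 10.3% of all tested genes. The gene that fell was Rchy1, also called Pirh2, a ubiquitin ligase of p53 that is itself a p53 target. It was at 9.50, 10.1 and 9.37 FPKM in pcDNA replicates 1, 2 and 3 and at 7.94, 8.85 and 8.01 FPKM in Hnf3a replicates 1, 2 and 3, all 3 lower. The log2 ratio was -0.23 ± 0.056 at an edgeR adjusted p of 0.0383, which lay between 0.0773 and 0.202 when any library other than Hnf3a replicate 2 was left out. An unverified transcript model, Gm43039, overlaps it on the same strand and the pseudogene Thap6 on the other. Atm, the kinase that signals broken DNA to p53, was lower in all 3 Hnf3a libraries, with a log2 ratio of -0.18 (edgeR adjusted p 0.0979). It passed without Hnf3a replicate 1, at -0.23 with an adjusted p of 0.0301, and in DESeq2, at 0.0135. Cdkn2a, whose locus makes the Mdm2 inhibitor ARF as well as p16, was at 60.1 ± 3.67 and 58.2 ± 0.996 FPKM (SD, n = 3) in the Hnf3a and pcDNA groups, with a log2 ratio of 0.039. Usp7, which removes ubiquitin from Mdm2 and p53, had one of 0.016.

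**Figure D3:**
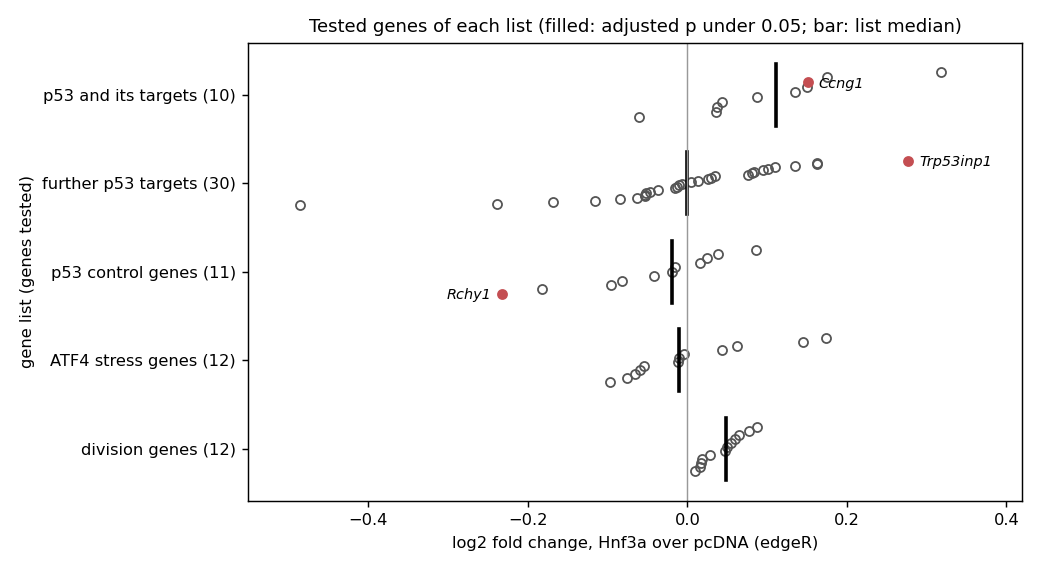
Log2 ratio, Hnf3a over pcDNA, of the tested genes of 5 lists (number tested in parentheses). Filled points passed an adjusted p of 0.05 over all genes and are named; black bars are list medians. The p53 list has a median of 0.11 with 1 gene called, and the further targets centre at -0.00074.

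Sesn2 and Gdf15 also belong to the response driven by ATF4, the factor made when translation is slowed by stress. Of 12 genes of that response, 0 passed in edgeR, with 1 at an unadjusted p under 0.05, and DESeq2 called 0 as well. Over all tested genes, 3.17% passed in edgeR and 13.5% had such an unadjusted p. The median log2 ratio was -0.011, with 4 estimates above 0 and 8 below, and the groups were apart upward for 2 and downward for 1, against 10.3% and 8.7% of all tested genes. The 2 apart upward, named after their values were seen, were Chac1, which breaks down glutathione, at 0.17 (edgeR adjusted p 0.105), and Ddit3, the factor CHOP, at 0.15 (edgeR adjusted p 0.485). Atf4 itself was at 254.7 ± 19.8 FPKM in the Hnf3a group and 267.0 ± 6.30 FPKM in the pcDNA group (SD, n = 3), with a log2 ratio of -0.076 (edgeR adjusted p 0.55). Without Hnf3a replicate 3 it was -0.14, with an adjusted p of 0.041, and with Hnf3a replicate 1 alone -0.17, with one of 0.0235. Phgdh, which starts serine synthesis, and Sqstm1, the autophagy receptor p62, had log2 ratios of -0.0039 and -0.059. Sqstm1 was the 1 gene of the list apart downward (edgeR adjusted p 0.424).

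Active p53 is known to lower cell division genes through p21 and the DREAM complex. Of 12 such genes, 0 passed in edgeR, with 2 at an unadjusted p under 0.05, and 0 in DESeq2, where 3.17% of all tested genes passed in edgeR and 13.5% had such an unadjusted p. All 12 estimates were above 0, between 0.0099 and 0.087, with a median of 0.049, and the groups were apart upward for 3, against 10.3% of all tested genes. Top2a, which untangles DNA, was at 104.4 ± 0.883 FPKM in the Hnf3a group and 99.9 ± 2.47 FPKM in the pcDNA group (SD, n = 3), with a log2 ratio of 0.055 (edgeR adjusted p 0.395). The mitotic kinases Plk1 and Aurka had log2 ratios of 0.064 and 0.029.

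**Figure D4:**
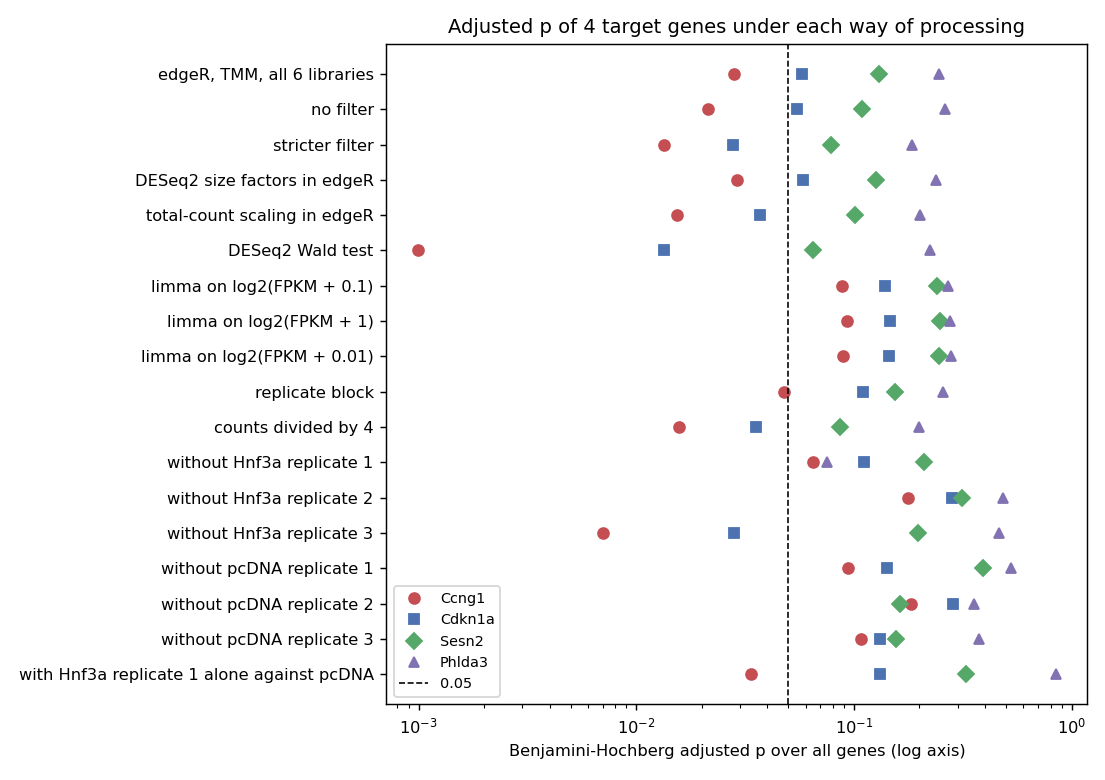
Benjamini-Hochberg adjusted p (log axis) of Ccng1, Cdkn1a, Sesn2 and Phlda3 in the reported edgeR fit (top) and 17 other ways of processing the same libraries. The dashed line is 0.05. Ccng1 lies left of it in the reported fit and in 9 of the 17 others, Cdkn1a in 5 of the 17, and Sesn2 and Phlda3 in 0.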

How the data were processed

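RNA from 3 Hnf3a and 3 pcDNA cultures was sequenced from both ends (150 bases per read). The submitters' processing notes name cutadapt 1.9, HISAT2 2.0.4, UMI-tools, StringTie 1.3.4d, DESeq2, edgeR and build mm10 (GRCm38), without their roles. The authors deposited 1 table, which gives each gene an estimated count and its FPKM in every library. The counts are whole numbers, and more genes sit at 4 counts (1148 to 1203 per library) than at 3 or 5, so 1 fragment may be worth several counts. Whether strand was used is not given in the sources used here.

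Genes were filtered (filterByExpr), scaled by TMM and tested two-sided with edgeR 4.0.16 (glmQLFit, robust; glmQLFTest) under R 4.3.3, in a model of the 2 groups alone. Benjamini-Hochberg adjustment ran over 17824 genes, with a threshold of 0.05. Intervals of 95% used the moderated degrees of freedom. An exact permutation test of 3 against 3 cannot go below 0.1. FPKM served for levels and for whether groups overlapped. Alternatives were other filters and scalings, DESeq2 1.42.0, limma 3.58.1 on log2(FPKM + 0.1), a scale that understates changes of low genes, a replicate block, counts divided by 4, and leaving out libraries. Hnf3a replicate 1 alone was added after the data were seen. On simulated data for this comparison (17824 genes), 110 of 200 genes changed by 0.5 on the log2 scale were recovered, with 4 false calls. With a change of 1, 134 of 200 were recovered, also with 4 false calls. The simulation gave all genes the same spread between libraries. Its smaller change, 0.5, was larger than any estimate of the 10 genes, so recovery of changes as small as theirs was not tested. All 10 genes are named, and of other lists the genes past the threshold and the 3 most abundant. Genes apart in the further target and ATF4 lists were also named, after their values were seen, as were Trp63 and Trp73. The genes and lists were chosen with earlier results of these data known. Gene coordinates of the 10 are those of the table and of GENCODE vM21.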

Additional observations from a re-analysis of the deposited data

How the results depend on the processing

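The count of p53 and target genes past the threshold, 1 as reported, was 2 (Ccng1 and Cdkn1a) with at least 1 FPKM in 3 libraries, under total-count scaling, in DESeq2 and with counts divided by 4. It was 0 in the limma fits with pseudocounts of 0.1, 1 and 0.01, and from 0 to 2 when 1 library at a time was left out. The further p53 targets went from 1 to 0 in the 3 limma fits and ran from 0 to 1 without single libraries. The p53 control genes went from 1 to 2 in DESeq2 and to 0 in the 3 limma fits, and ran from 0 to 1 without single libraries; the 1 without Hnf3a replicate 1 was Atm, not Rchy1. The ATF4 genes ran from 0 to 1 without single libraries and the division genes stayed at 0. With Hnf3a replicate 1 alone the log2 ratio was 0.32 for Trp53inp1 and -0.17 for Atf4. Over all genes the count, 565 as reported, was 236 (57 higher), 231 (53 higher) and 245 (65 higher) in limma with those pseudocounts, 824 in DESeq2, 263 to 643 without single libraries, and 353 with Hnf3a replicate 1 alone. The cause was not tested, except that fits without a library hold fewer samples.

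Foxa1 kept its call in all 16 alternatives. Direction was kept by 7 of the 10 genes in every alternative in which they were tested. Bax turned to 0.0082 without Hnf3a replicate 1 (-0.11 to 0.0082 without single libraries), Bbc3 to -0.086 without Hnf3a replicate 3 (-0.086 to 0.18) and to -0.13 with Hnf3a replicate 1 alone, and Gdf15 to -0.029 in that last fit; none of these 3 passed the threshold in any fit. Eda2r was not tested under the stricter filter. Libraries of the same replicate number showed no shared deviation from their group means (correlations -0.041, -0.010 and 0.01). These values cannot show whether the cultures were paired. With the replicate block the count was still 1, Ccng1, at an edgeR adjusted p of 0.0479, with 463 genes over all. At 248 to 359 counts, Eda2r had an interval too wide to show a change of a few percent.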
